A study of Mus musculus with 6 samples.

Results

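Chemokines are small secreted proteins that guide white blood cells, and 10 mouse chemokine genes were followed here in chemically induced liver tumours: Cxcl1, Cxcl2, Cxcl9, Cxcl10, Cxcl12, Ccl2, Ccl5, Ccl6, Ccl9 and Cx3cl1. Every probe set whose only gene symbol in the platform annotation was a member was taken, which gave 15 of the 22626 probe sets tested, for 10 of 12393 genes. Cxcl12, Ccl6 and Ccl9 had 2 probe sets each, Cx3cl1 had 3 and the other members 1 each. The probe sets were matched by name, with no threshold on their values. The members and the gene lists used below were, however, chosen with earlier results of these data known.

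The arrays held RNA of liver tumours from 6 male mice, 3 wild-type (WT) and 3 Alb/AEG-1 transgenic. AEG-1, astrocyte elevated gene-1, is the product of Mtdh. In constructs named in this way albumin regulatory sequence drives the gene in hepatocytes, a detail that the labels do not spell out. The mice of both groups, controls included, had received N-nitrosodiethylamine (DEN), a carcinogen activated in hepatocytes, once at 10 µg per g body weight into the peritoneum on day 14 of life. Tumours were collected at 28 weeks of age. There was no untreated liver and no non-tumour liver among the arrays. The labels record CD-1 as the background strain of both groups and B6CBAF1/J matings as the source of the injected embryos. The number of transgenic lines is not given in the sources used here. The question put to the chemokines was whether tumours with the transgene had other levels than tumours without it.

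Chemokines act through receptors on the cells they attract. CXC chemokines with the ELR motif, such as those encoded by Cxcl1 and Cxcl2, draw neutrophils through Cxcr2, and the interferon-inducible Cxcl9 and Cxcl10 products draw T and NK cells through Cxcr3. CC chemokines act mostly on monocytes, macrophages and lymphocytes, Cxcl12 holds and recruits cells through Cxcr4, and Cx3cl1 encodes a membrane-bound chemokine that proteases shed. In liver they are made by hepatocytes, Kupffer cells, endothelium and stellate cells, and they are known for drawing immune cells into injured and tumour-bearing tissue.

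Several members lie beside each other in the genome, by the order of genes in the RefSeq gene table. Cxcl1 is next to Cxcl2, Cxcl9 and Cxcl10 are separated by Art3 alone, and Ccl5, Ccl9 and Ccl6 follow each other. The promoters of the first 2 pairs are shown because neighbours with similar promoter letters could be compared on the same arrays. RefSeq promoter sequences (build GRCm38.p6) matched 8 of the 10 members; there was no entry for Ccl2 and Ccl5. Bases before the start of the gene are printed 5′ to 3′ on the strand of the gene, at chr5:90891095-90891244 (plus strand) for Cxcl1, chr5:90903749-90903898 (plus) for Cxcl2, chr5:92328080-92328329 (minus) for Cxcl9 and chr5:92348890-92349139 (minus) for Cxcl10. All 4 windows lie upstream of the annotated start, with 150 bases printed for Cxcl1 and Cxcl2 and 250 for Cxcl9 and Cxcl10. Capitals mark matches to the NF-kappaB consensus, the site of a factor activated by inflammatory cytokines, or to GAAANNGAA, the core of the interferon-stimulated response element (ISRE), where N is any base.
Cxcl1: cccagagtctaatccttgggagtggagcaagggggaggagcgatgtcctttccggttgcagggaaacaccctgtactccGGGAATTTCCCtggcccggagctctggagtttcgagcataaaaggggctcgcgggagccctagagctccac
Cxcl2: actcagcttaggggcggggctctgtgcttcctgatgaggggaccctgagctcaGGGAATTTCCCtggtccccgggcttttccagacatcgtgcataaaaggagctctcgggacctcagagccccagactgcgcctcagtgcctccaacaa
Cxcl9: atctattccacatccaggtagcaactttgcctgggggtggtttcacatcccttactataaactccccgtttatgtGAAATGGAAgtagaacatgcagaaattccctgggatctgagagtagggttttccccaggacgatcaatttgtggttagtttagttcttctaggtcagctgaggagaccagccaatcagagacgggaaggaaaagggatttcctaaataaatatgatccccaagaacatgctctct
Cxcl10: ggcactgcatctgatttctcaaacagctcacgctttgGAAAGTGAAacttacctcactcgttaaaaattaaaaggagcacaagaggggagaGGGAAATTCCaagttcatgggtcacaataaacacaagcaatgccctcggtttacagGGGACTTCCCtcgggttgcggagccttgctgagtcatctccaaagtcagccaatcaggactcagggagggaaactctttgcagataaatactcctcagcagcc

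Both neutrophil chemokine promoters carried the same 11 bases, GGGAATTTCCC, 71 to 61 bases before the start of Cxcl1 and 97 to 87 before that of Cxcl2. The consensus matched this run on both strands. Its first 10 bases were searched for after the Cxcl1 match had been seen. Read over 250 bases before each start, 28 of 32851 RefSeq promoters held them (0.0852%), those of Cxcl1 and Cxcl2 among them. Cxcl10 had 2 NF-kappaB matches and 1 ISRE core, and Cxcl9 had 1 ISRE core 175 to 167 bases before the start. Over the 250 bases before each start and on both strands, the NF-kappaB consensus was found in 4 members (Cxcl1, Cxcl2, Cxcl10 and Ccl9) and in 3.90% of all promoters. The ISRE core was found in 2 members and in 7.13% of promoters. The motif TTCNNNGAA, the core of the interferon-gamma activated site, was found in 0 members and in 7.02% of promoters. Cxcl12, Ccl6 and Cx3cl1 had no match in this window. A match describes letters and was not tested as a binding site.

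Each value below is a log2 expression level, so a difference of 1 is 2-fold. Differences are Alb/AEG-1 minus WT with the standard error (SE) of the limma fit to all probe sets, and adjusted p-values are Benjamini-Hochberg values over all 22626. Groups were called separated when all 3 values of one genotype lay beyond all 3 of the other. Hepatocyte markers, as a check of the tissue, averaged between 13.42 and 13.52 on the 6 arrays (8 of 10 listed genes measured, 0 of them dim, that is, below the median probe set mean of 5.83). Array medians differed by at most 0.0289, and Pearson's r for pairs of arrays over probe sets was 0.987 to 0.993. The 6 probe sets of Mtdh differed by between -0.09 and 0.20, and 0 were separated. The labels do not give the sequence of the transgene, so these values do not check the genotype. The sample titles number the animals. WT replicate 1 and Alb/AEG-1 replicates 1 and 2 carry lower numbers, and the other 3 mice carry higher numbers. What the numbers stand for is not stated, and differences inside each number range are given for each member.

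As a group, the chemokines did not pass the adjusted threshold: limma called 0 of 15 probe sets at an adjusted p below 0.05, where 0.00442% of all probe sets were called. At an unadjusted p below 0.05 there were 4 of 15 (26.7%, against 8.06% of all probe sets). Of these, 3 were higher in Alb/AEG-1 tumours (3.68% of all probe sets) and 1 was lower (4.38%). The 4 were Cxcl1, Cxcl9 and Cxcl10 on the higher side and a Cx3cl1 probe set on the lower side. Groups were separated in 3 of 15 probe sets (20%, against 14.7%), higher for Cxcl9 and Ccl6 and lower for Cx3cl1. With the probe set of the highest mean for each gene, 6 of 10 members had a positive difference (60%, against 47.8% of all genes), and the median difference was 0.08 (all genes -0.01). With few arrays a group, precision was limited: 3 against 3 values cannot give a 2-sided exact permutation p below 0.1. Of the member probe sets, 8 of 15 were dim. Because the members were chosen with earlier results of these data known, the shares set beside those of all probe sets are descriptions only. They are not an independent test of the chemokines.

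**Figure D1:**
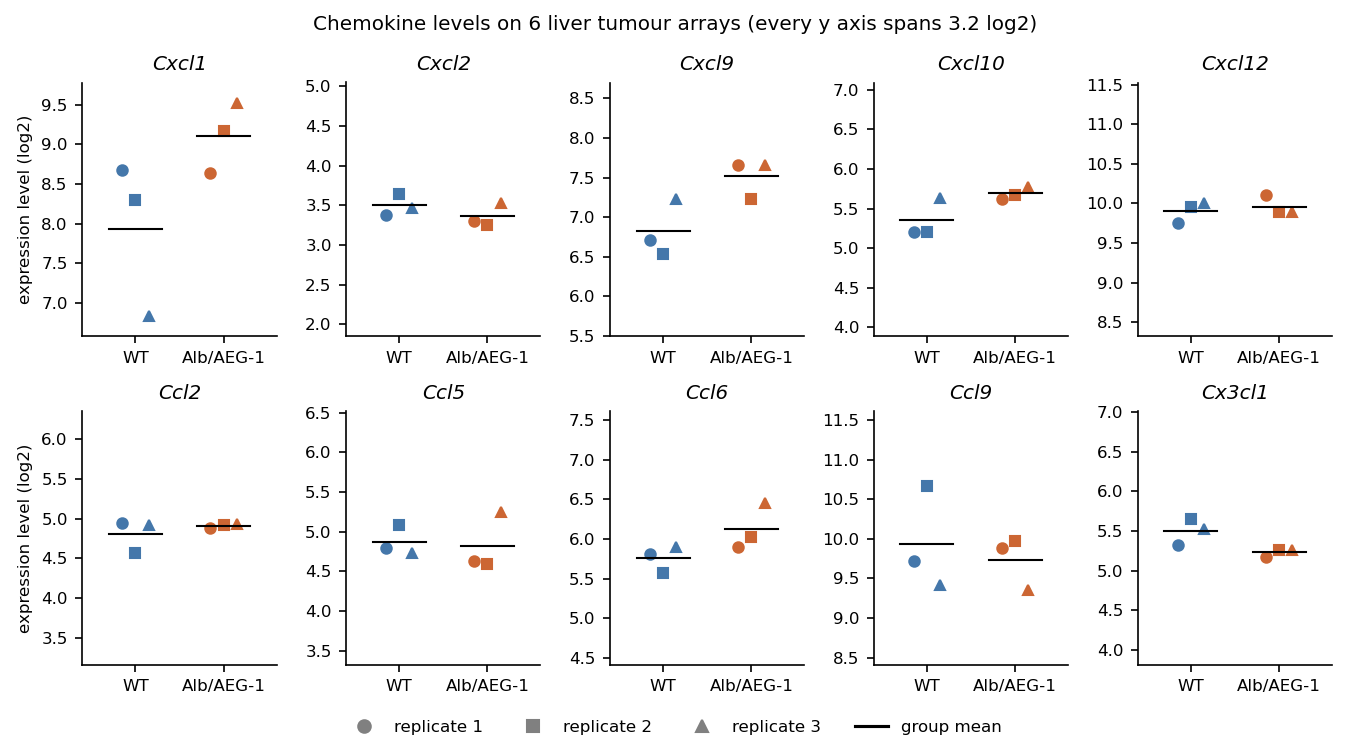
Log2 expression level of the 10 chemokine genes (probe set with the highest mean) on 6 arrays, by genotype. Points are tumours, symbols give the replicate and lines the group means; every vertical axis spans the same 3.2 log2. All Alb/AEG-1 values of Cxcl9 lie above all WT values, narrowly, and WT replicate 3 stands low for Cxcl1.

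Cxcl1 encodes a ligand of Cxcr2 that hepatocytes and macrophages release in inflammation, and it had the largest difference of the 15 probe sets. Its levels were 8.68, 8.30 and 6.83 in WT replicates 1, 2 and 3, and 8.64, 9.16 and 9.53 in Alb/AEG-1 replicates 1, 2 and 3. WT replicate 3 was the lowest, and 2 of 3 Alb/AEG-1 tumours lay above every WT tumour, so the groups overlapped. The group means were 7.94 ± 0.97 (SD, n = 3) and 9.11 ± 0.44 (SD, n = 3). The difference was 1.17 ± 0.46 (SE), or 2.26-fold, with a 95% interval of 0.11 to 2.24 (limma, unadjusted p = 0.0346, adjusted p = 0.611). Without WT replicate 3 it was 0.62 (unadjusted p = 0.0503), and without WT replicate 1 it was 1.55. The unadjusted p was also above 0.05 without Alb/AEG-1 replicate 2 (0.0803) or 3 (0.107). Cxcl1 differed by 0.23 in lower-numbered and by 1.96 in higher-numbered mice. A limma term for the inequality of these was 1.74 ± 0.81 (SE; unadjusted p = 0.0788, adjusted p = 0.962).

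Cxcl2, the neighbouring gene for another Cxcr2 ligand, did not have a positive difference. It was dim, at 3.38, 3.65 and 3.47 in WT and 3.30, 3.25 and 3.53 in Alb/AEG-1 tumours. The groups overlapped, with 2 Alb/AEG-1 values below all WT values and replicate 3 above 2 of them. The difference was -0.14 ± 0.11 (SE), with a 95% interval of -0.40 to 0.12 (limma, adjusted p = 0.722). It was -0.11 in lower-numbered and -0.030 in higher-numbered mice. Whether the differences of Cxcl1 and Cxcl2, whose promoters share the 11 bases in capitals, differ from each other was not tested.

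Cxcr2, the neutrophil receptor for both ligands, was dim and differed by -0.13 ± 0.10 (SE). Cxcl5 and Ppbp encode other ligands of this receptor and differed by -0.05 ± 0.10 and 0.15 ± 0.16; they were named after their values were seen. Of 11 neutrophil markers listed, 9 were measured, 8 of them dim. They had 3 positive and 6 negative differences (33.3% positive, against 47.8% of all genes) and a median of -0.15. At an unadjusted p below 0.05, 3 of 9 were lower and 0 higher, where 8.33% of all genes were called in either direction. The 3 were Mpo, the granule enzyme myeloperoxidase (-0.35 ± 0.10), Ltf, lactoferrin (-0.26 ± 0.10), and Csf3r, the G-CSF receptor (-0.28 ± 0.11; unadjusted p = 0.0511 with a term for the number range). Mean neutrophil marker levels ranged from 4.38 to 4.90 in WT and from 4.41 to 4.84 in Alb/AEG-1 tumours, and their mean differed by 0.33 in lower-numbered and -0.38 in higher-numbered mice. S100a8, encoding a calcium-binding protein abundant in neutrophils, was at 3.78, 4.80 and 5.91 in WT and at 6.40, 4.99 and 4.68 in Alb/AEG-1 tumours; it was chosen after its values were seen. The S100a8 probe set was dim and of a type open to cross-binding by related transcripts. WT replicate 3, lowest for Cxcl1, was the highest WT tumour for S100a8. In bulk RNA fewer cells of a type and less RNA per cell cannot be told apart, and the part of neutrophil content in the Cxcl1 values was not tested.

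Cxcl9 was the member whose difference varied least between the animal number ranges. Cxcl9 encodes a ligand of Cxcr3 made by macrophages, endothelium and hepatocytes under interferon-gamma. Levels were 6.71, 6.53 and 7.23 in WT and 7.66, 7.23 and 7.65 in Alb/AEG-1 tumours. The groups were separated, but WT replicate 3 and Alb/AEG-1 replicate 2 were level at 2 decimals. Means were 6.82 ± 0.36 and 7.52 ± 0.25 (SD, n = 3 each). The difference was 0.69 ± 0.20 (SE), or 1.62-fold, with a 95% interval of 0.23 to 1.15 (limma, unadjusted p = 0.00866, adjusted p = 0.596). It was 0.74 in lower-numbered and 0.77 in higher-numbered mice, and leaving out any 1 array gave between 0.55 and 0.90. The unadjusted p stayed below 0.05 under all 16 alternatives, and the adjusted p did not pass under any.

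Cxcl10, the gene beyond Art3 from Cxcl9 and another interferon-inducible Cxcr3 ligand, lay in the same direction with a smaller difference. It was dim, at 5.20, 5.21 and 5.64 in WT and 5.63, 5.67 and 5.78 in Alb/AEG-1 tumours. WT replicate 3 was again the highest of its group and overlapped the Alb/AEG-1 range. The difference was 0.34 ± 0.13 (SE), or 1.27-fold, with a 95% interval of 0.03 to 0.65 (limma, unadjusted p = 0.0348, adjusted p = 0.611). It was 0.44 in lower-numbered and 0.35 in higher-numbered mice. Leaving out any 1 array gave 0.27 to 0.48, and the unadjusted p stayed below 0.05 only without WT replicate 3.

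Cxcl11 encodes the remaining Cxcr3 ligand and was named after its values were seen. It was at 6.30, 6.42 and 6.38 in WT and 6.18, 6.55 and 6.33 in Alb/AEG-1 tumours. Its difference was -0.01 ± 0.11 (SE), and its other probe set had the opposite sign. The receptor gene Cxcr3 was at 5.35, 5.27 and 5.26 in WT and 5.18, 5.07 and 5.13 in Alb/AEG-1 tumours. These groups were separated on the lower side, with a difference of -0.17 ± 0.08 (SE; limma, unadjusted p = 0.0652, adjusted p = 0.627) at a dim probe set. Of 16 T and NK cell markers listed, 14 were measured and 12 of these were dim. They had 2 positive and 12 negative differences (14.3% positive, against 47.8% of all genes) with a median of -0.12. Gzmb, a cytotoxic protease (-0.29 ± 0.12), was the 1 of 14 at an unadjusted limma p below 0.05 (7.14%, against 8.33% of all genes). Its unadjusted p was 0.0971 with a term for the number range. Mean T and NK marker levels ranged from 4.30 to 4.45 in WT and from 4.21 to 4.34 in Alb/AEG-1 tumours. Cxcr3 and 12 of these 14 markers had negative differences, mostly at dim probe sets and with 0 markers past the adjusted threshold. The relation of the Cxcl9 and Cxcl10 values to T and NK cell content was not tested.

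Among genes upstream of these chemokines, 20 of 22 listed were measured. Differences were positive in 8 and negative in 12 (40% positive, against 47.8% of all genes), with a median of -0.04. An unadjusted p below 0.05 was found for 2 of 20 (10%), near the 8.33% of all genes. Irf7, the interferon regulatory factor that amplifies type I interferon production, was at 7.02, 7.35 and 7.32 in WT and 7.70, 7.68 and 7.58 in Alb/AEG-1 tumours (0.42 ± 0.11). Irf9, a subunit of the factor that binds the ISRE, was at 7.03, 6.49 and 6.63 in WT and 7.29, 7.04 and 7.38 in Alb/AEG-1 tumours (0.52 ± 0.16). Both were separated on the higher side, and each had a limma adjusted p of 0.596. In lower-numbered and higher-numbered mice Irf7 differed by 0.67 and 0.24, Irf9 by 0.13 and 0.81, and Icam1 by 1.11 and 0.29. Icam1, an adhesion molecule that NF-kappaB induces, differed by 0.56 ± 0.24 with overlapping groups (unadjusted p = 0.052, and 0.0166 with a term for the number range), and the cytokine gene Il6 by -0.17 ± 0.10. Named after their values were seen, the inducers Ifng, Tnf and Il1b differed by 0.04 ± 0.08, -0.08 ± 0.10 and -0.40 ± 0.28, all at dim probe sets.

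**Figure D2:**
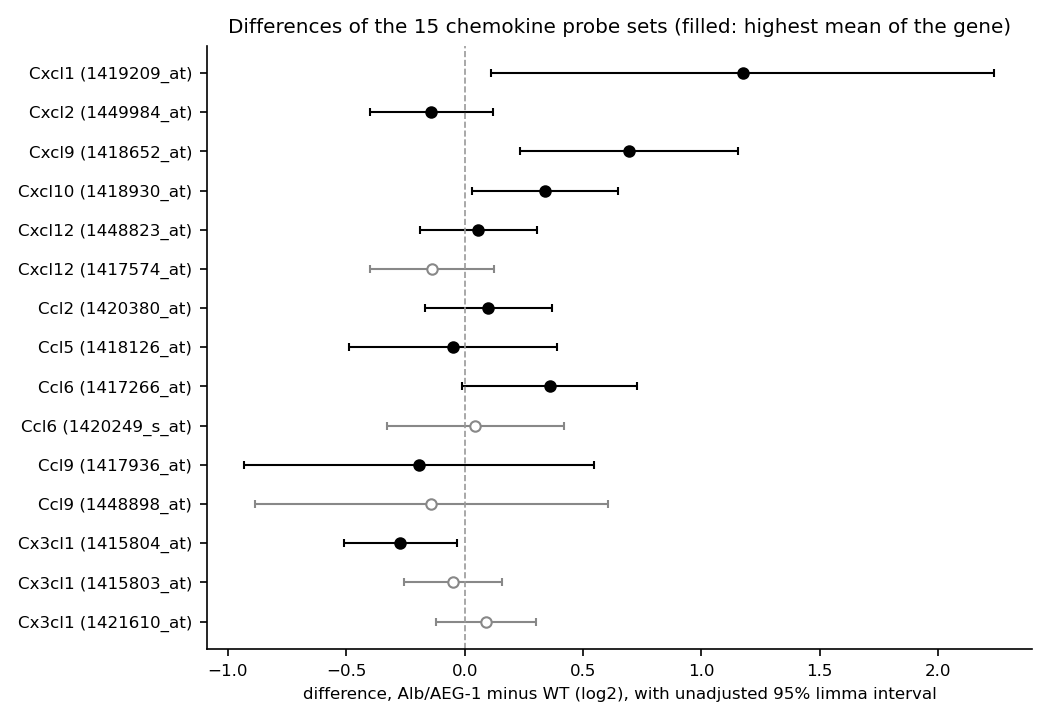
Difference (Alb/AEG-1 minus WT, log2) of the 15 chemokine probe sets with unadjusted 95% limma intervals; filled points are the probe set with the highest mean of each gene, open points the others. Intervals of Cxcl1, Cxcl9, Cxcl10 and a Cx3cl1 probe set leave out 0, and those of Cxcl1 and both Ccl9 probe sets are the widest.

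Cxcl12, which encodes the homeostatic ligand of Cxcr4 made by stromal and endothelial cells, had overlapping groups. Its probe set of the higher mean was at 9.75, 9.96 and 10.0 in WT and 10.10, 9.89 and 9.89 in Alb/AEG-1 tumours. The difference of 0.06 ± 0.11 (SE) had a 95% interval of -0.19 to 0.31 (limma, adjusted p = 0.883). It was 0.25 in lower-numbered and -0.090 in higher-numbered mice. The other probe set had the opposite sign, -0.14 ± 0.11. Cxcr4 was at 3.05, 3.05 and 3.06 in WT and at 3.35, 3.26 and 3.0 in Alb/AEG-1 tumours. These groups overlapped at a dim probe set, with a difference of 0.15 ± 0.10. Ackr3, a scavenging receptor for the Cxcl12 product, was dim and differed by 0.09 ± 0.13 at a probe set of a type open to cross-binding.

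Among the CC chemokines, Ccl6 was the 1 with separated groups. Ccl6 encodes a chemokine of myeloid cells that is found in rodents. Its main probe set was at 5.82, 5.58 and 5.90 in WT and 5.90, 6.02 and 6.45 in Alb/AEG-1 tumours. WT replicate 3 and Alb/AEG-1 replicate 1 were level at 2 decimals, so the separation was minimal. The difference was 0.36 ± 0.16 (SE), with a 95% interval of -0.01 to 0.73 (limma, unadjusted p = 0.055, adjusted p = 0.618). It was 0.14 in lower-numbered and 0.71 in higher-numbered mice, and the limma term for that inequality was 0.57 ± 0.25 (unadjusted p = 0.0646). With a term for the number range, the genotype difference was 0.43 (unadjusted p = 0.0314). Without Alb/AEG-1 replicate 3 the difference was 0.20. The other Ccl6 probe set, dim and of a type open to cross-binding by related transcripts, differed by 0.04 ± 0.16.

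Macrophage markers had differences of the same sign as Ccl6. Of 16 listed, 15 were measured (Timd4 was not analysed here), 4 of them dim, and 15 of 15 had a positive difference (47.8% of all genes), with a median of 0.42. At an unadjusted p below 0.05, 5 of 15 were higher (8.33% of all genes were called in either direction): Aif1, an actin-binding protein (0.55 ± 0.15), C1qb and C1qc, complement subunits (0.76 ± 0.21 and 0.42 ± 0.17), Mpeg1, a pore-forming protein (0.90 ± 0.25), and Cd5l, a secreted macrophage protein (0.54 ± 0.17). All 5 were short of the adjusted threshold, and Aif1 was read at a dim probe set of a type open to cross-binding. This list too was chosen with earlier results of these data known, so its shares describe and do not test. With a term for the number range, C1qc was no longer below 0.05 (unadjusted p = 0.0723), and Marco, a scavenger receptor (0.0134), and Lyz2 (0.0407) were; both were named after their values were seen. Mean macrophage marker levels were 7.05, 6.66 and 6.79 in WT and 7.01, 7.28 and 7.58 in Alb/AEG-1 tumours. Alb/AEG-1 replicate 3 was highest for this mean and for Ccl6. The mean differed by 0.09 in lower-numbered and 0.86 in higher-numbered mice. The interaction of genotype and range had an unadjusted p below 0.05 in 11 of 15 markers (4.82% of all probe sets) and an adjusted p below 0.05 in 0. At their main probe sets Cxcl1, Cxcl2, Cxcl9, Ccl2, Ccl5 and Ccl6 also had a higher difference in higher-numbered than in lower-numbered mice. The other members had a lower one. Alb/AEG-1 replicate 3 was the only Alb/AEG-1 tumour in the higher range. The part of macrophage content in the Cxcl1, Cxcl9, Cxcl10 and Ccl6 values was not tested.

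**Figure D3:**
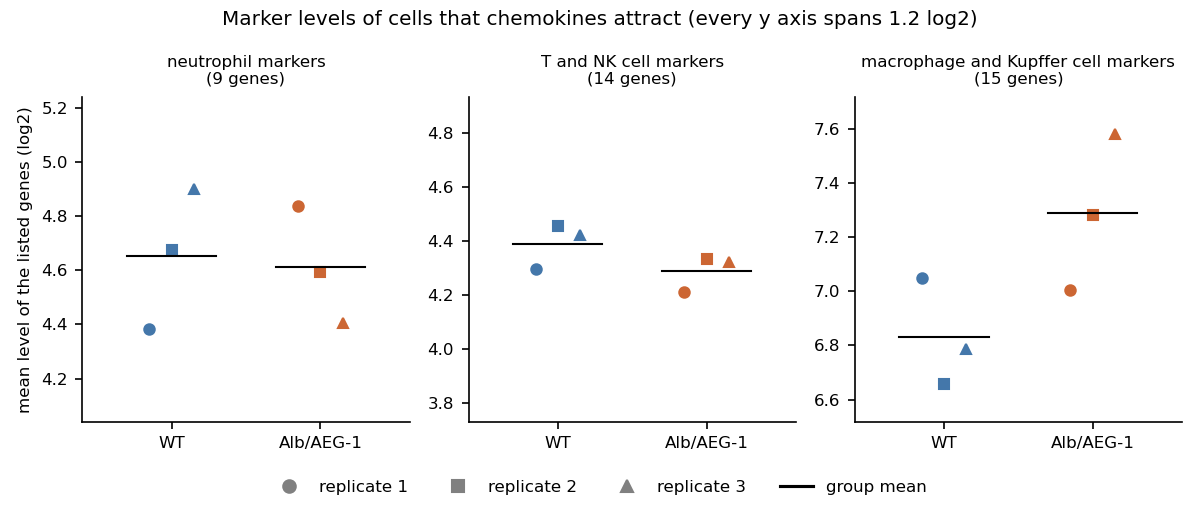
Mean log2 level of neutrophil, T and NK cell, and macrophage and Kupffer cell markers on each of the 6 arrays, by genotype. Points are tumours, symbols give the replicate, lines are group means and every vertical axis spans 1.2 log2. Macrophage markers reach 7.58 in Alb/AEG-1 replicate 3, while the neutrophil ranges of the groups overlap almost fully.

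The other CC members did not separate the groups. Ccl2, which encodes the main attractant of Ccr2-bearing monocytes, was dim at 4.94, 4.57 and 4.92 in WT and 4.88, 4.92 and 4.93 in Alb/AEG-1 tumours. WT replicate 2 was the low value, and the difference of 0.10 ± 0.12 was -0.022 without it. It was -0.042 in lower-numbered and 0.19 in higher-numbered mice. Its receptor gene Ccr2 was dim and differed by 0.09 ± 0.10, with both its other probe sets of opposite sign. The 4 measured monocyte markers of 7 listed had a median difference of 0.04, with 0 at an unadjusted limma p below 0.05 (8.33% of all genes). Plac8 differed by 0.29 ± 0.14. Mean monocyte marker levels ranged from 4.36 to 4.51 in WT and from 4.38 to 4.64 in Alb/AEG-1 tumours.

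Ccl5, encoding a chemokine that T and NK cells release, was dim at 4.80, 5.08 and 4.73 in WT and 4.63, 4.59 and 5.24 in Alb/AEG-1 tumours. Alb/AEG-1 tumours held both the highest and the 2 lowest values. The difference of -0.05 ± 0.19 (SE) had a 95% interval of -0.49 to 0.39, and it was -0.19 in lower-numbered and 0.34 in higher-numbered mice. Ccl9, a myeloid chemokine gene beside Ccl6, was at 9.72, 10.66 and 9.41 in WT and 9.89, 9.97 and 9.36 in Alb/AEG-1 tumours. WT replicate 2 stood highest at both Ccl9 probe sets. The difference was -0.19 ± 0.32 (SE), with a 95% interval of -0.93 to 0.55 (limma, adjusted p = 0.868), and 0.17 without WT replicate 2. It was 0.21 in lower-numbered and -0.68 in higher-numbered mice. The second Ccl9 probe set differed by -0.14 ± 0.32. Ccr1, a receptor that Ccl5, Ccl6 and Ccl9 products use, was dim and differed by -0.07 ± 0.10.

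Cx3cl1 was the member whose main probe set had separated groups on the lower side. It encodes fractalkine, which tethers Cx3cr1-bearing monocytes and lymphocytes at the cell surface until it is shed. The probe set of the highest mean, dim like the other 2, was at 5.33, 5.65 and 5.53 in WT and 5.17, 5.26 and 5.26 in Alb/AEG-1 tumours. All Alb/AEG-1 values lay below all WT values. The difference was -0.27 ± 0.10 (SE), with a 95% interval of -0.51 to -0.03 (limma, unadjusted p = 0.0308, adjusted p = 0.611). It was -0.11 in lower-numbered and -0.33 in higher-numbered mice, and leaving out any 1 array gave -0.36 to -0.20. The unadjusted p was above 0.05 in all of these fits except that without WT replicate 1; it was 0.10 without WT replicate 2, 0.0766 without WT replicate 3, 0.0887 without Alb/AEG-1 replicate 1, 0.0541 without Alb/AEG-1 replicate 2 and 0.0533 without Alb/AEG-1 replicate 3. The other probe sets were at -0.05 ± 0.09 and 0.09 ± 0.09, and the mean of all 3 differed by -0.078 (limma, unadjusted p = 0.306). Cx3cr1 was dim and differed by -0.07 ± 0.11.

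The shedding proteases of fractalkine lay on opposite sides. Adam17, which sheds it on stimulation, was at 7.18, 6.93 and 7.07 in WT and 6.63, 6.69 and 6.53 in Alb/AEG-1 tumours, separated on the lower side. The difference was -0.44 ± 0.10 (SE), negative at 3 of 3 probe sets, -0.52 in lower-numbered and -0.47 in higher-numbered mice (limma, unadjusted p = 0.00214, adjusted p = 0.596). Adam10, which sheds it constitutively, was at 8.10, 7.88 and 8.01 in WT and 8.29, 8.32 and 8.20 in Alb/AEG-1 tumours, separated on the higher side. It differed by 0.28 ± 0.09, with 2 of 3 probe sets positive. Both enzymes cut many other proteins. Of the 9 processing enzymes listed and measured, 3 were at an unadjusted p below 0.05 (8.33% of all genes); the remaining 1 was Mmp2, a matrix metalloprotease that clips chemokines, at -0.32 ± 0.11, with its other probe set of opposite sign. The neutrophil collagenase gene Mmp8 differed by -0.27 ± 0.13. The list had 3 positive and 6 negative differences (33.3% positive, against 47.8% of all genes) and a median of -0.10.

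The rest of the chemokine family was read as a list. Of 28 other ligand genes, 24 were measured, 19 of them dim. They had 7 positive and 17 negative differences (29.2% positive, against 47.8% of all genes) and a median of -0.04. At an unadjusted p below 0.05 there was 1 of 24 (4.17%, against 8.33% of all genes), Cxcl14, encoding a chemokine of epithelia. It was dim, at 4.0, 3.90 and 3.70 in WT and 4.72, 5.30 and 4.14 in Alb/AEG-1 tumours. Its groups were separated on the higher side at 0.85 ± 0.27 (limma, unadjusted p = 0.0134, adjusted p = 0.596). Its difference was 1.01 in lower-numbered and 0.33 in higher-numbered mice, and its other probe set had the opposite sign. Next by unadjusted p were Ccl25, a T cell chemokine gene (-0.23 ± 0.12), Ccl17, a Ccr4 ligand gene (-0.24 ± 0.13), and Ccl3, a macrophage chemokine gene beside Ccl6 (-0.22 ± 0.12).

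Of 23 receptor genes, 21 were measured and 20 of those were dim. Differences were positive in 7 and negative in 14 (33.3% positive, against 47.8% of all genes), with a median of -0.07. Ccr6, the receptor for the Ccl20 product on lymphocytes and dendritic cells, was the 1 of 21 at an unadjusted p below 0.05 (4.76%, against 8.33% of all genes). It was at 4.46, 4.77 and 4.74 in WT and 4.33, 4.31 and 3.95 in Alb/AEG-1 tumours, separated on the lower side at -0.46 ± 0.14 (limma, unadjusted p = 0.00993, adjusted p = 0.596). The difference was -0.15 in lower-numbered and -0.81 in higher-numbered mice. Ackr2, a scavenger of CC chemokines, differed by -0.25 ± 0.15 and Ccr4 by -0.13 ± 0.08. Ccr6, Ackr2 and Ccr4 all lay at dim probe sets.

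**Figure D4:**
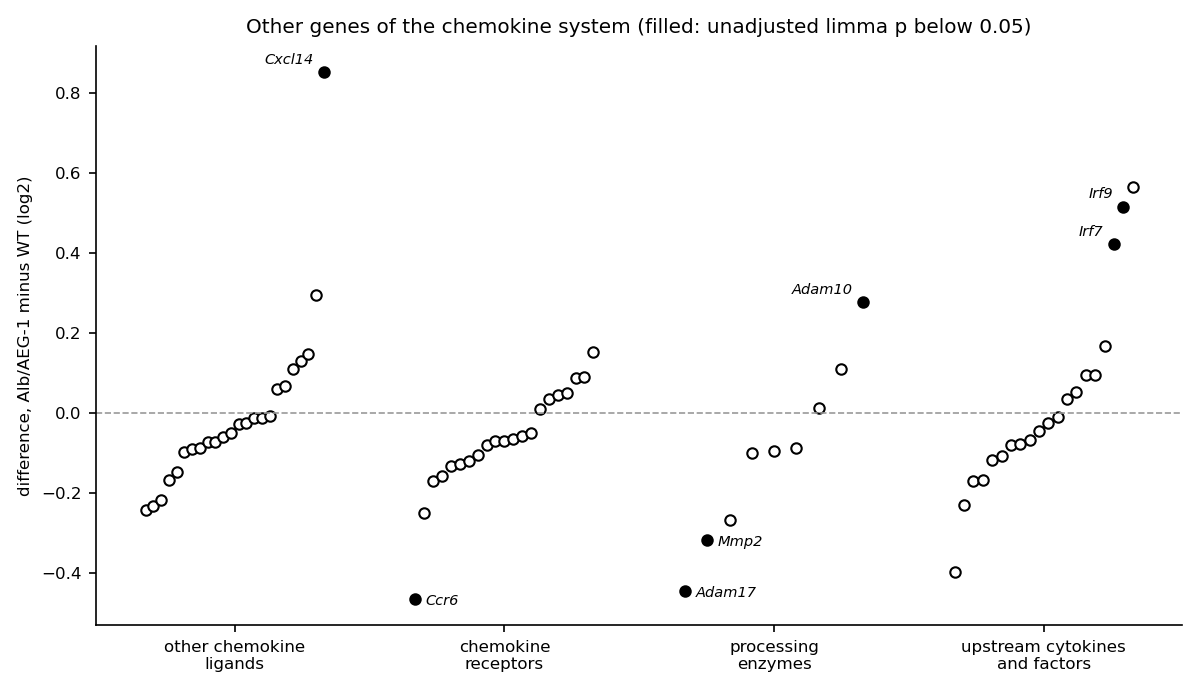
Differences (Alb/AEG-1 minus WT, log2) of the other genes of the chemokine system, 1 point a gene, ordered within each list; filled points have an unadjusted limma p below 0.05 and are named. Cxcl14 stands highest at 0.85 and Ccr6 lowest at -0.46, both at dim probe sets. Most receptor and ligand genes lie between -0.3 and 0.3.

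Signs within the lower and the higher range agreed for Cxcl1, Cxcl2, Cxcl9, Cxcl10, Ccl6 and Cx3cl1 and were opposite for Cxcl12, Ccl2, Ccl5 and Ccl9. The interaction of genotype and range was called in 0 of 15 probe sets at an adjusted p below 0.05 (0% of all probe sets) and in 0 of 15 at an unadjusted p below 0.05 (4.82% of all). Each range held 3 arrays, of which 1 was alone in its genotype. With the range as a term, the unadjusted p was below 0.05 for 3 of 15 probe sets (6.63% of all probe sets), those of Cxcl9, Cxcl10 and Ccl6, and it was 0.0648 for Cxcl1 and 0.0625 for Cx3cl1.

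**Figure D5:**
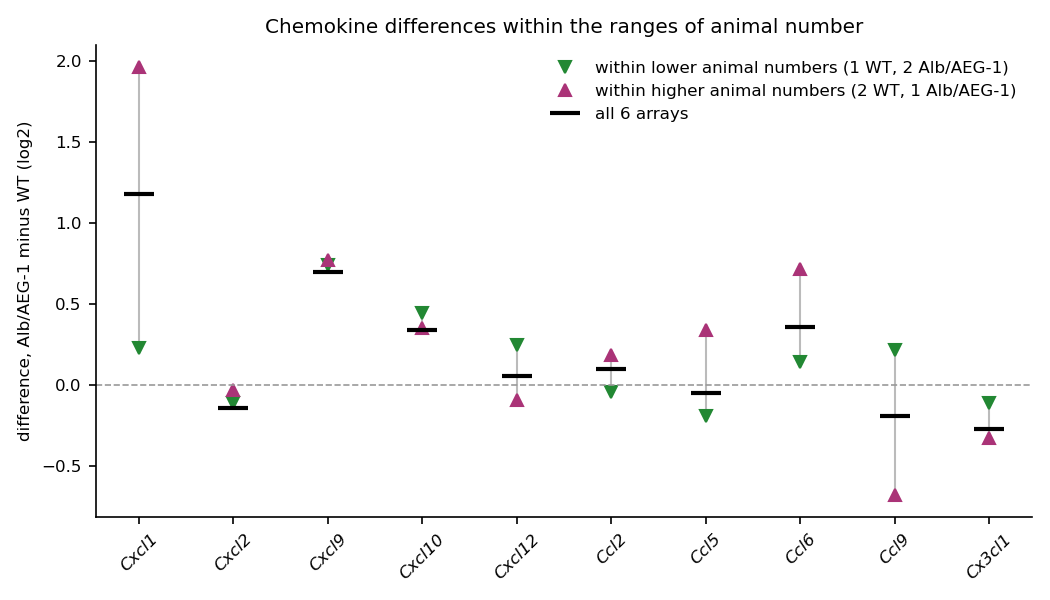
Difference (Alb/AEG-1 minus WT, log2) of each chemokine gene inside the lower and higher animal number ranges (triangles) and over all 6 arrays (bars). Cxcl9 and Cxcl10 differ little between ranges, while Cxcl1 spans 0.23 to 1.96 and Ccl9 0.21 to -0.68.

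The patterns of single members over the 6 arrays were set beside those of 433 other genes that were not dim and varied by at least 1 log2. Each member was read at its probe set of the highest mean only. Pearson's r was used as a measure of likeness; the 6 points share the genotype groups and animal number ranges, and many genes were searched. Nearest to Cxcl1 were Srebf1, encoding a regulator of lipid synthesis (r = 0.990), Rtp4 (0.933) and Frrs1 (0.915). Cd36, a fatty acid and lipoprotein receptor gene, was nearest to Cxcl9 (0.979), followed by Orm2 and Guk1 (both 0.893). Cxcl10 was nearest to Orm2, an acute-phase protein gene (0.972), then Cd36 (0.931) and Snap47 (0.907). Ccl6 was nearest to the lysozyme genes Lyz1 and Lyz2 (0.971 and 0.937), with Actg1 between them (0.942). The Lyz1 and Actg1 probe sets are of types open to cross-binding, so Lyz1 and Lyz2 may not be separate readings. Cx3cl1 was nearest to Gypc (0.959), Ppara, a regulator of fatty acid oxidation (0.908), and Scnn1a (0.90). Its other probe sets did not share 1 pattern. In WT replicate 2, where Gypc was highest (7.07), 1 of them was lowest (4.25) and the other was highest (4.87).

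For the other members, Cxcl12 was nearest to S100a9 (0.973), Igfbp1 (0.916) and Klf2 (0.835). S100a9, like S100a8 a neutrophil marker, was at 4.97, 5.84 and 6.40 in WT and 6.95, 5.84 and 5.50 in Alb/AEG-1 tumours. The other Cxcl12 probe set, of similar mean level (9.79 against 9.93), had another pattern. It was lowest, at 9.65, in Alb/AEG-1 replicate 1, where S100a9 was highest. Cxcl2 was nearest to the clock gene Cry2 (0.993), then Inmt (0.989) and Tk1 (0.986). Ccl2 was nearest to Celsr1 (0.993), Mal2 (0.943) and Tubb2a (0.935), Ccl5 to Adssl1 (0.962), Cyp46a1 (0.957) and Thrsp (0.938), and Ccl9 to As3mt (0.977), Erbb3 (0.898) and Cyp2c23 (0.874). Celsr1 was at 6.41, 4.38 and 6.16 in WT and 6.08, 6.05 and 6.20 in Alb/AEG-1 tumours, so WT replicate 2 alone sets it apart, as in Ccl2.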

How the data were processed

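The deposited values are log2 expression levels that the authors made with RMA, per the submitters' processing notes, which state no version. RMA corrects background, quantile-normalizes arrays and summarizes probes, so a shift common to most genes cannot be seen. Total RNA was extracted with Trizol, per the labels' protocols. Of 22690 probe sets, 64 controls were left out. Symbols came from the platform annotation: 20380 probe sets had 1 symbol, 691 several and 1555 none.

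Groups follow the genotype labels. The arrays carry separate animal numbers in their titles, replicates were numbered in accession order, and p-values measure the spread between these tumours only. Differences were tested in R 4.3.3 with the moderated 2-sided test of limma 3.58.1 (functions lmFit and eBayes; 7.53 degrees of freedom in total). Benjamini-Hochberg adjustment ran over all 22626, with 0.05 as the threshold. The code of the fit was run on simulated arrays with known differences and independent errors drawn from the model's own assumptions. That run checks the code, not how well the model suits these arrays. For 1 value a gene, the probe set of highest mean stood for it. Plots used matplotlib 3.10.9 in Python 3.11.15.

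The members and gene lists were chosen with earlier results of these data known. All members are named, then up to 4 genes of each other list with the smallest unadjusted p, receptors beside their ligands, and the 3 genes most like each member (mean at or above the median probe set, range at least 1 log2). Alternatives were trend or robust moderation, repeated quantile normalization, median centring, a filter on dim probe sets, a filter on the x_at and s_at types, gene-level values (the highest or the mean of the probe sets), array weights, a term for the animal number range, and each array left out in turn.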

Additional observations from a re-analysis of the deposited data

How the results depend on the processing

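The count of chemokine probe sets past an adjusted p of 0.05 was 0 in the 16 alternatives, and the interaction count was 0 in the 2 alternatives tried for it. At an unadjusted p below 0.05 the count was 2 with dim probe sets left out, since 7 member probe sets remained, and between 1 and 3 when an array was left out. It was 2 without WT replicate 2 or 3 and 1 without Alb/AEG-1 replicate 2 or 3, always including Cxcl9. Separated groups numbered 3 to 6 when an array was left out, with 3 against 2 values: 5 without WT replicate 1 or 3 and 6 without Alb/AEG-1 replicate 1 or 3. Over all probe sets the separated share then rose too, to between 22.1% and 31.1%. Robust moderation replaced Cxcl1 by Ccl6 among the 4.

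The signs of Cxcl1, Cxcl9 and Ccl6 held in the 16 alternatives and those of Cxcl2, Cxcl10 and Cx3cl1 in 15, since these 3 were dim and had no value with dim probe sets left out. Signs turned for members with differences near 0: Cxcl12 at -0.040 with the mean of all probe sets and -0.020 to 0.11 with an array left out, Ccl2 at -0.022 to 0.16, Ccl5 at 0.075 with a term for the number range and -0.26 to 0.065, and Ccl9 at -0.45 to 0.17. The cause was not tested. No paired analysis was possible because the labels give the groups no shared replicate numbers. Dim probe sets (8 of 15) limit what can be seen for Cxcl2, Cxcl10, Ccl2, Ccl5 and Cx3cl1.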

Other observations

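Other cell types of the liver were read by their own marker lists. Of 10 endothelial markers, 5 had a positive and 5 a negative difference, and Lyve1, a hyaluronan receptor of sinusoidal and lymphatic endothelium, was at 5.98, 5.94 and 5.62 in WT and 6.05, 6.18 and 6.87 in Alb/AEG-1 tumours (0.52 ± 0.22, SE). Vwf differed by 0.14 ± 0.08, Clec4g by -0.16 ± 0.10 and Cdh5 by 0.13 ± 0.11. The 10 stellate cell and fibroblast markers had 0 at an unadjusted limma p below 0.05 (8.33% of all genes) and a median of -0.02. Col3a1 differed by 0.39 ± 0.20 and Des by -0.15 ± 0.08. The 5 measured bile duct markers of 7 listed also had 0, against the same 8.33%, with a median of 0.03. Lists this short can hold 0 at that share. Among the 8 hepatocyte markers Ahsg, a secreted plasma protein gene, differed by 0.22 ± 0.09.

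Plasma cell RNA was read by Jchain, the joining chain of secreted immunoglobulin, at 4.55, 4.40 and 4.67 in WT and 5.25, 5.69 and 4.77 in Alb/AEG-1 tumours. It differed by 0.70 ± 0.21 (SE; limma, adjusted p = 0.596). The other 4 measured B cell and plasma cell markers differed by between -0.05 and 0.19, and all 5 were at dim probe sets. Of 6 measured dendritic cell markers, all dim, 5 had a negative difference (16.7% positive, against 47.8% of all genes). Cd209a (-0.33 ± 0.12) was the 1 of 6 at an unadjusted limma p below 0.05 (16.7%, against 8.33% of all genes). Flt3, a growth factor receptor, differed by -0.23 ± 0.11. That list holds the receptor genes Ccr7 and Xcr1, which the receptor list holds too.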
